A study of Mus musculus with 4 samples.

Results

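The genes described here are Nfe2l2, which encodes the transcription factor NRF2, and 9 genes of the thiol antioxidant system: Nqo1, Slc7a11, Gclc, Gclm, Gsr, Txnrd1, Srxn1, Prdx1 and Gpx4. These 10 genes were chosen by symbol, from 32285 genes in the count matrices, and each has 1 row there. They were measured by droplet single-cell RNA sequencing (10x Genomics Chromium, 3′ chemistry) in 4 libraries from tumors of the DLA mouse model, in which DLA cells, a transplantable mouse tumor line labelled as lymphoma, are injected into the abdominal cavity of Swiss albino mice. Control 1 and control 2 came from mice that the sample labels call untreated and the study's supplement calls vehicle controls. SP11 1 and SP11 2 came from mice given SP11, an HSP90 inhibitor, orally at 30 mg/kg for 17 days. All 4 tumors were minced, digested and passed through a lysis of red blood cells, and the age and sex of the mice were not given in the sources used here. The methods call the sets of samples independent and the supplement speaks of biological replicates, but neither these nor the labels say whether each library came from its own animal, so that p-values measure the spread between these libraries, which may be technical.

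NRF2 is held at low levels by KEAP1, an adaptor that brings it to a ubiquitin ligase. When oxidants or electrophiles modify KEAP1, NRF2 accumulates, pairs with small MAF proteins and binds antioxidant response elements near its target genes. Its targets supply cystine (Slc7a11), make glutathione (Gclc and Gclm), return oxidised glutathione to its reduced form (Gsr), and drive the thioredoxin and peroxiredoxin cycle (Txnrd1, Srxn1, Prdx1), while GPX4 uses glutathione to reduce lipid peroxides and limits ferroptosis.

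The core of the antioxidant response element was located in the promoters to show which members carry it close to a start site. Promoter windows of 300 bases, from 250 before to 50 after an annotated RefSeq start (GRCm38.p6), were on hand for 8 of the 10 members, in 13 windows. The letters TGACNNNGC, on either strand, were in a window of 5 of these 8 members, while 14% of all 27025 genes with such a window held them. Each match is printed below with 10 flanking bases on each side where the window allowed, 5′ to 3′ on the strand of the gene, and capitals mark the 9 matched letters.
Nfe2l2, chr2:75704885-75704913, minus strand: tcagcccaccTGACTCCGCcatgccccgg
Gclm, chr3:122245413-122245441, plus strand: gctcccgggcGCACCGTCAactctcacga
Prdx1, chr4:116685456-116685484, plus strand: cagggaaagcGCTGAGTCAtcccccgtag
Srxn1, chr2:152105542-152105570, plus strand: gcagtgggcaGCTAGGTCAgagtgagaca
Txnrd1, chr10:82859104-82859132, plus strand: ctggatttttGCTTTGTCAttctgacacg
The match of Nfe2l2 begins 240 bases before the start, those of Gclm and Prdx1 134 and 133 bases before, that of Txnrd1 92 bases before the second of its 3 annotated starts, and that of Srxn1 29 bases after. The match of Prdx1 overlaps the letters TGANTCA of an AP-1 site, which were in the windows of 2 of the 8 members, Prdx1 and Srxn1, and of 8.97% of all genes. Nqo1, Slc7a11 and Gpx4 held no match in these windows, which says only that the letters are not in these 300 bases. A match in sequence is not evidence of binding.

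The matrices list 977 and 595 barcodes for the control libraries and 2277 and 1483 for the SP11 libraries, and 60 to 359 barcodes are shared by name between any pair of libraries. Barcodes with at least 200 genes and at most 10% mitochondrial UMIs (unique molecular identifiers, each standing for 1 captured transcript) were kept, which left 916, 566, 1831 and 1091 with 9574906 to 13024964 UMIs per library. Tumor cells were taken as barcodes with at least 5 UMIs of Krt8 and Krt18, and B cells, T cells, myeloid cells (macrophages and monocytes) and neutrophils by UMIs of their markers. The tumor-gated cells numbered 845, 528, 1256 and 582 and held 96.0% of all UMIs of the kept barcodes. The label lymphoma was checked against its markers: the tumor-gated cells carried the epithelial genes Krt19 and Epcam at 194 to 719 counts per 1000000 UMIs (CPM), whereas the leukocyte gene Ptprc had 5, 2, 96 and 63 UMIs in them and the B cell gene Cd79a had 7, 10, 378 and 179. These cells are therefore called tumor cells by the keratin rule only. Tumor cells that also passed an immune gate numbered 6, 3, 119 and 38, and each of the 1256 and 582 tumor cells of the SP11 libraries held a hemoglobin UMI, against 523 and 330 in the controls.

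In tumor cells 0 of the 9 members tested were called different between SP11 and control. For Nfe2l2, the counts were 494 (control 1), 538 (control 2), 698 (SP11 1) and 579 UMIs (SP11 2), or 51.2, 56.8, 56.8 and 47.7 CPM. The groups overlapped, and the fitted log2 fold change of SP11 over control was −0.17 (SE 0.14, edgeR adjusted p = 0.623). The quinone reductase gene Nqo1, often read as a marker of NRF2 activity, was sparse, with 35, 23, 28 and 43 UMIs, or 3.63, 2.43, 2.28 and 3.54 CPM in the same order. The highest and the lowest library of Nqo1 lay in different groups, with 1 control above and 1 below SP11 2.

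Among the genes of cystine uptake and glutathione synthesis, Gclm, the modifier subunit of glutamate-cysteine ligase, gave 78 and 87.0 CPM for the control libraries beside 72.2 and 80.0 CPM for those with SP11. These groups overlapped, since SP11 2 lay above control 1, and the log2 fold change of −0.24 (SE 0.12) had the smallest p among the members (edgeR, 0.0597 unadjusted and adjusted p = 0.369). Gclc, the catalytic subunit, was at 17.2 and 23.2 CPM against 23.4 and 25.3 CPM, so that both SP11 libraries lay above both controls. The log2 fold change of Gclc was 0.14 (SE 0.15, edgeR adjusted p = 0.719), and the gap between the 2 controls was wider than that between control 2 and SP11 1. Gsr, which encodes glutathione reductase, stayed within 43.2 to 46.9 CPM in all 4 libraries. Slc7a11, the cystine/glutamate antiporter subunit, was almost absent from tumor cells, with 0, 4, 15 and 5 UMIs in sums of 9477943 to 12287495, and was too low to be tested there. Without barcodes that also passed an immune gate, 20 of these 24 UMIs were left.

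Of the thioredoxin and peroxiredoxin genes, Txnrd1, which encodes thioredoxin reductase 1, was at 57.8 and 63.9 CPM in controls and at 71.8 and 66.7 CPM with SP11. The SP11 libraries lay above both controls in this scale, yet the fitted log2 fold change was 0.06 (SE 0.13, edgeR adjusted p = 0.868). Srxn1, which repairs overoxidised peroxiredoxins, was at 7.88 and 8.12 CPM against 8.55 and 8.66 CPM, with a log2 fold change of −0.02 (SE 0.18). For both genes CPM and fit differ because the fit also scales the libraries. The TMM factors were 0.944 and 0.970 for the controls and 1.00 and 1.09 for SP11, which lowers the SP11 levels relative to the CPM given here. Prdx1, the peroxidase of the set with the most UMIs, was at 901 and 1006 CPM against 859 and 928 CPM, with a log2 fold change of −0.22 (SE 0.13, edgeR adjusted p = 0.474). Gpx4 was at 773 and 637 CPM against 780 and 654 CPM, so that its replicates differed more from each other than the groups did.

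Among all 11588 genes tested in tumor cells, edgeR called 2.31% at an adjusted p under 0.05, a share that was 0.635% without control 2, 1.47% without control 1, 3.6% without SP11 2 and 8.96% with the replicate number as a block. Of the 9 members tested, 0 had an unadjusted p under 0.05 and DESeq2 also called 0. The median log2 fold change of the 9 members was −0.15, beside −0.004 over all genes tested. Without scaling between libraries both medians lay higher, at −0.02 for the members and 0.12 over all genes, and the members stayed below all genes by about the same amount. Without SP11 2 the median of the members was 0.01. In simulated tumor sums, 82.8% of genes changed by 1 log2 unit were recovered, so that changes far below that size may pass undetected.

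**Figure D1:**
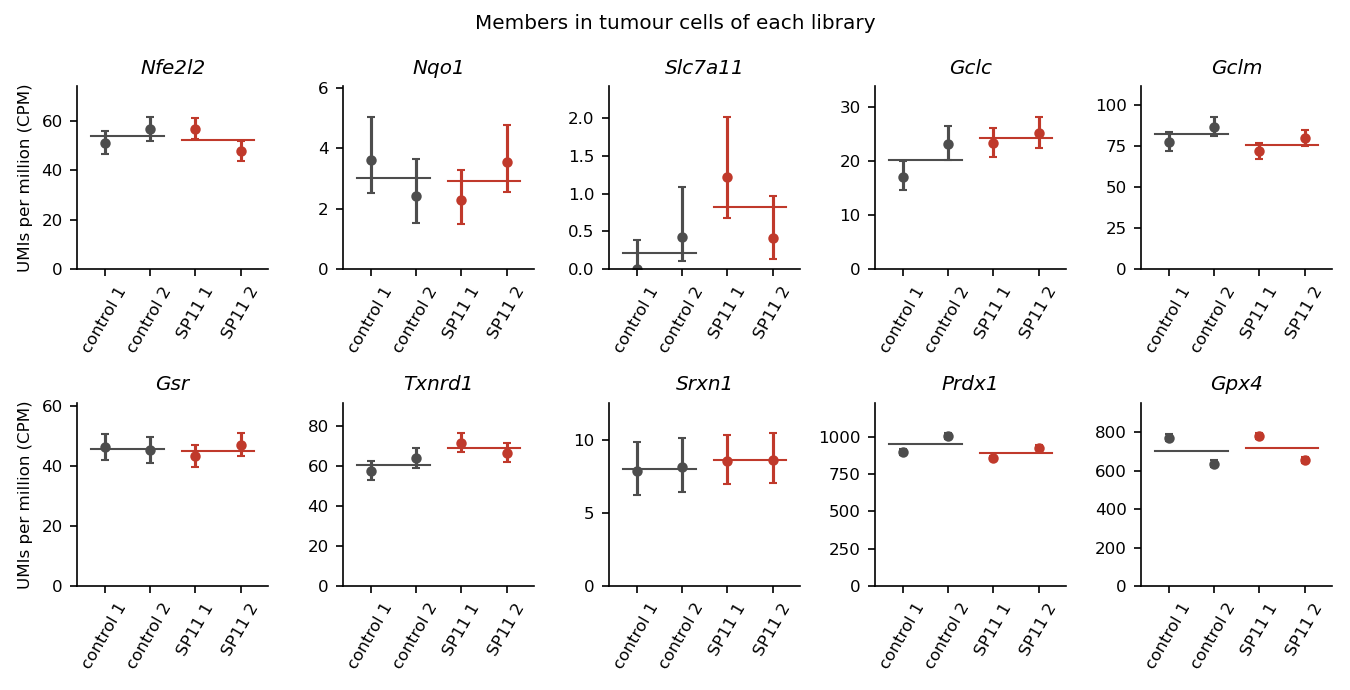
Level of each member in tumor cells, in CPM (y axis from 0, a scale per panel), in each library (x axis). Points are the level, bars the exact 95% Poisson interval, which covers counting error only, and lines the mean of the 2 control (grey) or 2 SP11 (red) libraries. Control and SP11 points overlap or lie close for 9 genes, and Slc7a11 has 0, 4, 15 and 5 UMIs.

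The share of tumor cells with at least 1 UMI of a member was compared after thinning to 5000 UMIs, which left out the 46, 17, 105 and 7 cells with fewer. The share for Nfe2l2 was 20.8% and 22.9% in the controls and 26.0% and 21.0% with SP11. Gclm was detected in 29.7%, 36.8%, 30.9% and 32.5% of cells in the same order, and Gclc in 6.88%, 9.59%, 9.90% and 11.1%. Prdx1 was found in 98.0% to 100% of the thinned cells and Gpx4 in 95% to 97.1%, whereas Nqo1 was found in 0.782% to 1.57%. Slc7a11 was found in 0.782% of cells in SP11 1 and in none of the 799, 511 and 575 thinned cells of the other libraries. At a depth of 5000 UMIs those counts of 0 allow up to 0.375%, 0.587% and 0.522% of cells with a UMI, and at full depth 0 of 845, 4 of 528, 15 of 1256 and 5 of 582 tumor cells held one. The smallest p that 2 libraries against 2 allow in a two-sided exact permutation test is 0.33, and only Gclc and Srxn1 reached it.

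The members were next compared between subsets of tumor cells, because the study stratified cells by Bcl2 and by Myc. The study's strata were drawn by Myc, Bcl2 and Hsp90aa1 among cells annotated as stem cells in SP11-treated samples. Here the split was by a UMI of Bcl2 or of Myc alone, in tumor-gated cells of control and SP11 libraries. It is therefore not a test of the study's strata. Among cells thinned to 5000 UMIs, 16, 19, 37 and 27 had a Bcl2 UMI. In these cells 0 of 8 members tested were called against the cells without one (0.0705% of genes were called, edgeR with library as a block, 0 members at an unadjusted p under 0.05, 0 by DESeq2). The log2 differences ran from −1.15 for Gclc (SE 0.61) to 0.20 for Txnrd1 (SE 0.25). In the 66 to 148 cells per library with a Myc UMI, 0 of 8 members were called, beside 0.0821% of genes. The differences ran from −0.62 for Srxn1 (SE 0.46) to 0.10 for Gclc (SE 0.24). Those of Prdx1 and Gpx4 were −0.06 (SE 0.04) and −0.09 (SE 0.04). Between tumor cells with more G2M than S phase UMIs, 0 of 8 were called beside 4.36% of genes, and the differences ran from −0.07 to 0.25. DESeq2 called 0 of 8 members in both of these comparisons, and 0 had an unadjusted p under 0.05. With cells thinned to 8000 UMIs, edgeR again called 0 of 8 members in each split. The shares of genes called were then 0.153% (Bcl2), 0.153% (Myc) and 6.12% (cycle phase). At that depth 1, 2 and 1 members, in the same order, had an unadjusted p under 0.05 (edgeR). Nqo1 and Slc7a11 were too sparse for these 3 comparisons.

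The members were then compared between cell classes. Myeloid cells numbered 27, 16, 186 and 116, with 49439 to 272024 UMIs per library. In the within-library comparison of myeloid with tumor cells, 7 of 10 members were called, 2 higher and 5 lower, where 46.0% of all 11408 genes were called, 18.8% higher and 27.3% lower. The median log2 difference over all genes was −0.54 and the differences below are given on the same scale, before that median is subtracted. Markers of tumor cells that were not used in the gate reached 6.74% to 16.3% of their tumor level in the myeloid sums, and 5 to 10 of their 13 genes were at 0 there, against 4 in the tumor cells. How far carried-over tumor RNA contributes to the myeloid values was not tested.

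Slc7a11 had the largest log2 difference among the members called. Myeloid cells held 6, 7, 8 and 11 UMIs, which is 120, 142, 33.9 and 40.4 CPM, against at most 1.22 CPM in the tumor cells of any library. The lowest myeloid level was far above the highest tumor level, and the log2 difference was 6.67 (SE 0.61, edgeR adjusted p = 1.32e-26). A UMI of Slc7a11 was seen in 4 of 27, 4 of 16, 7 of 186 and 5 of 116 myeloid cells, with up to 4 UMIs in a cell, and in 24 of the 3211 tumor cells. Tumor cells, with 96.0% of all UMIs of the kept barcodes, held 24 of their 104 Slc7a11 UMIs. Myeloid cells held 32, neutrophils 11 and B cells 6, and 31 were in barcodes of no class. Whether the Slc7a11 UMIs of tumor cells were carried over from other cells was not tested. Neutrophils, of which SP11 2 alone had at least 10, held 10 of its 50 UMIs in 8 of 39 cells, or 311 CPM (95% Poisson interval 149 to 572), and were not tested.

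Nfe2l2 itself was also higher in myeloid cells, at 200, 40.5, 157 and 176 CPM, with a log2 difference of 1.28 (SE 0.29, edgeR adjusted p = 4.40e-05). Control 2 alone, with 2 UMIs, lay below the tumor level. Nqo1 lay at the other end: all 129 of its UMIs were in tumor cells and 0 in myeloid, B, T or neutrophil sums. The 607401 myeloid UMIs allow a level of up to 4.94 CPM at a count of 0, above the tumor level of 2.96 CPM, so that a lower level of Nqo1 in myeloid cells was not detectable at this depth.

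Gclm, Gclc and Gsr were called lower in myeloid cells. Gclm was at 59.9, 40.5, 38.2 and 14.7 CPM in myeloid cells, below the tumor level in each library, with a log2 difference of −1.54 (SE 0.39, edgeR adjusted p = 0.000377). Gclc had 2, 0, 1 and 2 myeloid UMIs, or 39.9, 0, 4.24 and 7.35 CPM, and its log2 difference was −1.65 (SE 0.64, edgeR adjusted p = 0.0244). Gsr had 3, 0, 2 and 9 UMIs, or 59.9, 0, 8.48 and 33.1 CPM, with a difference of −1.18 (SE 0.45, edgeR adjusted p = 0.0218). In control 1 the myeloid CPM of Gclc and of Gsr lay above the tumor CPM, and in the other 3 libraries below it. Prdx1 and Gpx4 were lower by smaller amounts, −0.65 (SE 0.17) and −0.71 (SE 0.19). Once the median over all genes is subtracted, these 2 differences are −0.11 and −0.18. For Prdx1 the control means were alike, at 954 CPM in myeloid and 953 CPM in tumor cells, while the SP11 means were 571 and 893 CPM. In unscaled CPM the lower mean of Prdx1 thus lay in the SP11 libraries only. The fit also scales the sums, with TMM factors in controls of 0.843 and 0.864 (tumor) and 1.26 and 1.25 (myeloid). With SP11 they were 0.899 and 0.975 (tumor) and 0.962 and 1.03 (myeloid). This lowers the control myeloid levels relative to the CPM given here. The SP11 effect on Prdx1 was not called different between the classes (−0.18, SE 0.26, edgeR adjusted p = 0.935). For Gpx4 the myeloid mean was below the tumor mean in controls (563 against 705 CPM) and with SP11 (520 against 717 CPM). Txnrd1 and Srxn1 were not called, at −0.22 (SE 0.33) and 0.68 (SE 0.63).

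The number of calls changed with the libraries and the method, for the members and over all genes. Without SP11 2 only Slc7a11 was called, beside 25.4% of all genes. Without SP11 1 the calls were Slc7a11, Nfe2l2, Gclm and Gpx4, beside 32.4%. With the 2 control libraries alone only Slc7a11 was called, beside 7.66%. The SP11 libraries alone gave 6 of the 7 calls, beside 39.5%, and DESeq2 called Slc7a11, Nfe2l2 and Gclm, beside 34.7%. Each of these shares lay below the 46.0% of the main comparison, so that members lost calls where genes in general did. Slc7a11 was thus the member called in each of these fits.

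**Figure D2:**
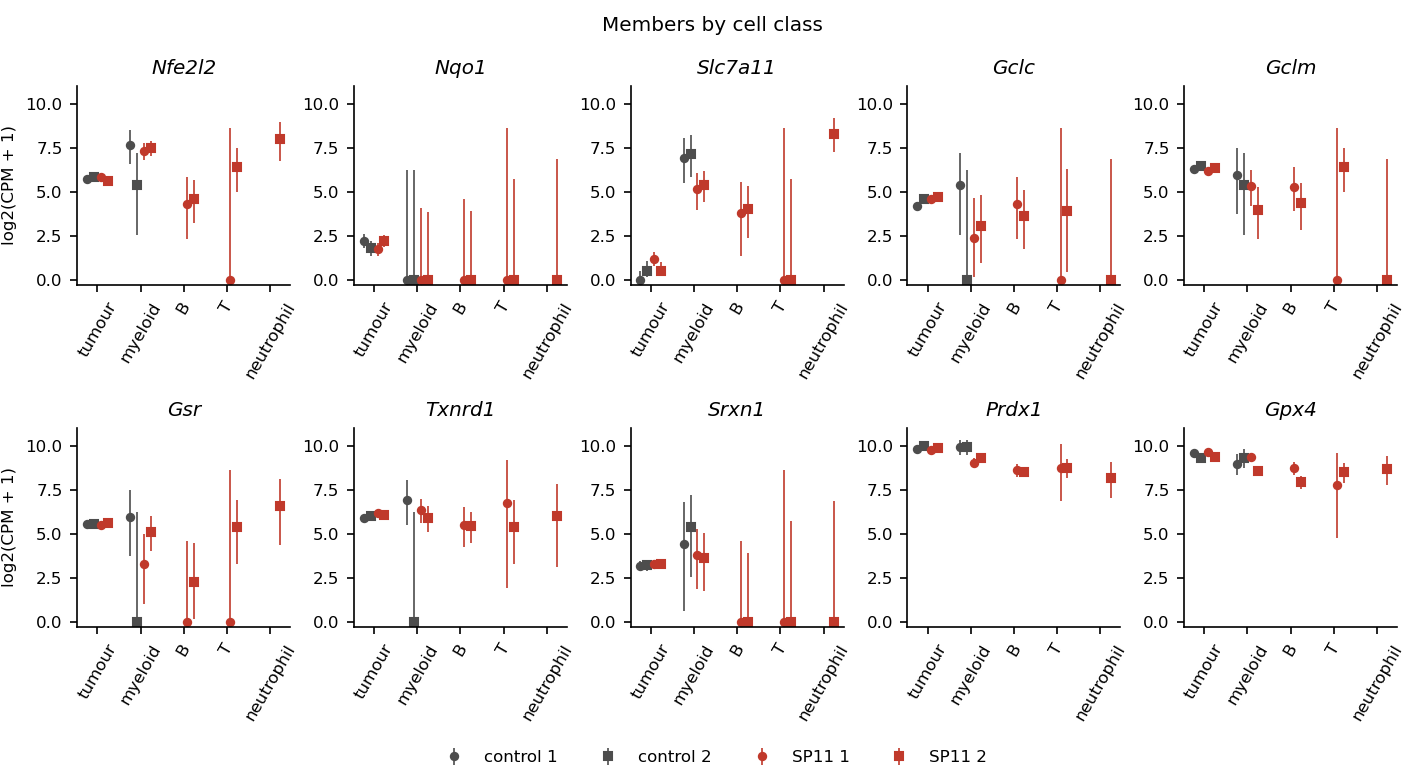
Level of each member as log2(CPM + 1) (y axis) in tumor cells and 4 immune classes (x axis), 1 point per library with at least 10 cells of the class, grey for control and red for SP11, with the 95% Poisson interval. For Slc7a11 the 4 myeloid points, from 33.9 to 142 CPM, lie above the 4 tumor points, at most 1.22 CPM, and Nqo1 is at 0 outside the tumor cells with intervals that reach above its tumor level.

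B cells had at least 10 cells in the SP11 libraries only, with 149 and 141. In them 6 of 10 members were called against tumor cells, 1 higher and 5 lower, where 35.5% of genes were called, 15.2% higher and 20.2% lower. Slc7a11 was higher again, with 2 and 4 UMIs in B cells (12.6 and 15.2 CPM) and a log2 difference of 4.27 (SE 1.13, edgeR adjusted p = 0.000774), but the 4 UMIs of SP11 2 came from 1 cell. Gsr was lower, with 0 and 1 UMIs in B cell sums of 158155 and 262319 UMIs, or 0 and 3.81 CPM. Tumor cells of these libraries had 531 and 569 UMIs of Gsr, or 43.2 and 46.9 CPM (−4.21, SE 0.86, edgeR adjusted p = 7.25e-06). Nfe2l2 was lower, at 19.0 and 22.9 CPM, in contrast with its higher level in myeloid cells. Gclm, Prdx1 and Gpx4 were lower, with log2 differences of −1.5, −1.22 and −1.15. DESeq2 called 4 of the 6, Slc7a11, Gsr, Prdx1 and Gpx4, beside 20.6% of genes. Tumor markers outside the gate were at 9.79% and 5.94% of their tumor level in the B cell sums.

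T cells, with 10 and 71 cells in the SP11 libraries, gave 0 of 9 calls beside 3.04% of genes. There 2 members, Prdx1 and Gpx4, had an unadjusted p under 0.05, and DESeq2 called 1, Prdx1, beside 5.18% of genes. Prdx1 was at 424 and 425 CPM and Gpx4 at 212 and 356 CPM in T cells. Slc7a11 had 0 UMIs in 82358 T cell UMIs of these libraries.

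**Figure D3:**
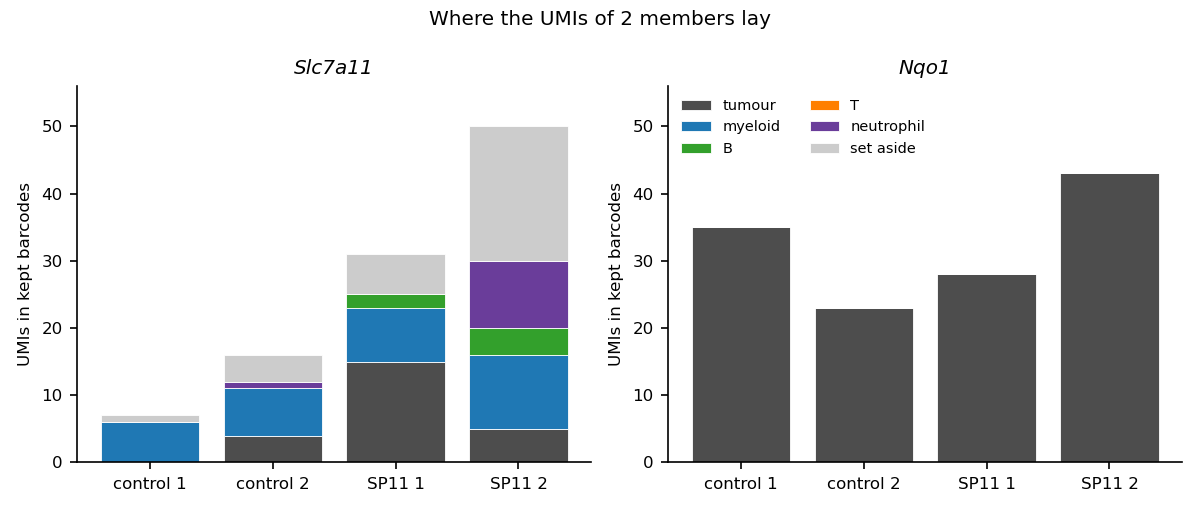
UMIs of Slc7a11 and Nqo1 in the kept barcodes of each library (x axis), stacked by cell class, where set aside means barcodes of no class (y axis from 0, in UMIs). Slc7a11 UMIs lie mostly outside the tumor cells, with 0 of 7, 4 of 16, 15 of 31 and 5 of 50 in them, and all 129 Nqo1 UMIs lie in tumor cells.

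Within myeloid cells, 5 members had enough UMIs to be tested for SP11 and 0 were called, beside 6.45% of the 2093 genes tested. Slc7a11 fell nearest to the threshold: the 119.7 and 141.6 CPM of the controls lay above the 33.9 and 40.4 CPM of the SP11 libraries with no overlap, and the log2 fold change was −1.76 (SE 0.55, edgeR adjusted p = 0.0554). These levels rest on 6, 7, 8 and 11 UMIs. Prdx1, at 958 and 951 CPM against 522 and 621 CPM, also did not overlap (log2 fold change −0.71, SE 0.26, edgeR adjusted p = 0.0991). Both had an unadjusted p under 0.05, and DESeq2 called 0 of the 5. Nfe2l2, Txnrd1 and Gpx4 had overlapping groups, with log2 fold changes of 0.50 (SE 0.52), 0.23 (SE 0.73) and −0.09 (SE 0.33). These values hung on single libraries: Nfe2l2 was at 1.94 without control 1 and −0.23 without control 2, and Gpx4 at −0.36 without control 1 and 0.42 without SP11 2. Txnrd1 was at −0.76 without control 2 and at 6.69 without control 1, and control 2 alone had 0 Txnrd1 UMIs. With edgeR, Slc7a11 passed the threshold when the mitochondrial limit was 20% (adjusted p = 0.0489) and when the replicate number was a block (adjusted p = 0.0227).

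Of 25 other NRF2 targets, 9 were tested in the same myeloid sums: Hmox1, Fth1 and Ftl1 were called lower with SP11, 6 were not called and 0 were called higher, where 3.20% of all genes tested were called lower. Hmox1, which encodes the heme-degrading enzyme heme oxygenase 1, had 439 and 364 CPM without SP11 but 72.1 and 154 CPM with it (log2 fold change −1.77, SE 0.40, edgeR adjusted p = 0.00764). Fth1, the ferritin heavy chain, was at 13128 and 14503 against 5805 and 7801 CPM (−1.0, SE 0.21, edgeR adjusted p = 0.00396). Ftl1, the ferritin light chain, was at 9497 and 16384 against 5576 and 8054 CPM (−0.91, SE 0.24, edgeR adjusted p = 0.0222). Hmox1 was lower in both SP11 libraries than in either control, as were both ferritin chains. Markers within the class moved with treatment in both directions. Of 6 resident macrophage genes, Wfdc17, Ccl8 and Ccl6 were called lower, while C1qa, C1qb and C1qc had log2 fold changes of 0.63, 0.55 and 1.14 and were not called. The summed level of the 6 was 13567 and 15372 CPM in controls and 6709 and 7121 with SP11, and C1q-positive cells were 5 of 27, 2 of 16, 31 of 186 and 19 of 116. The summed level of 4 monocyte genes was 778 and 971 CPM against 3091 and 3805, and Fn1 and Ccr2 were called higher. Hemoglobin and Alas2 together were at 299 and 182 CPM in control myeloid cells and at 68159 and 57028 with SP11. With the hemoglobin genes and Alas2 left out of the sums, Hmox1, Fth1 and Ftl1 stayed called, beside 5.17% of all genes. Otherwise the part of these shifts in the result was not tested. Without SP11 1 none of the 3 was called, without SP11 2 Hmox1 alone was, and without control 2 Ftl1 was lost, as it was with at least 500 genes per barcode (adjusted p = 0.0654). Without scaling between libraries all 3 were lost (adjusted p = 0.0681 to 0.160).

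In tumor cells the same lists held no calls. The 13 NRF2 regulators, which include Keap1 (80.0, 69.2, 82.0 and 85.0 CPM), had a median log2 fold change of 0.09. Their largest value, singled out after the values were seen, was 1.66 for Bach2, a repressor that competes for the same elements (SE 0.49, edgeR adjusted p = 0.103), at 0.311, 0.844, 2.12 and 1.90 CPM. The B cell genes Cd79a and Ms4a1 lay in the same order in these sums, at 0.726, 1.06, 30.8 and 14.8 CPM and at 0, 0.317, 5.94 and 2.89 CPM, and their part in the Bach2 value was not tested. The 22 other NRF2 targets tested had a median of 0.005, the 18 other glutathione genes −0.04, the 18 other thioredoxin and peroxiredoxin genes −0.06 and the 10 superoxide and ferroptosis genes −0.01. In each of these lists 0 genes were called by edgeR, beside 2.31% over all genes. Hmox1 was at 24.8, 18.7, 20.6 and 22.9 CPM in tumor cells, where the groups overlapped.

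**Figure D4:**
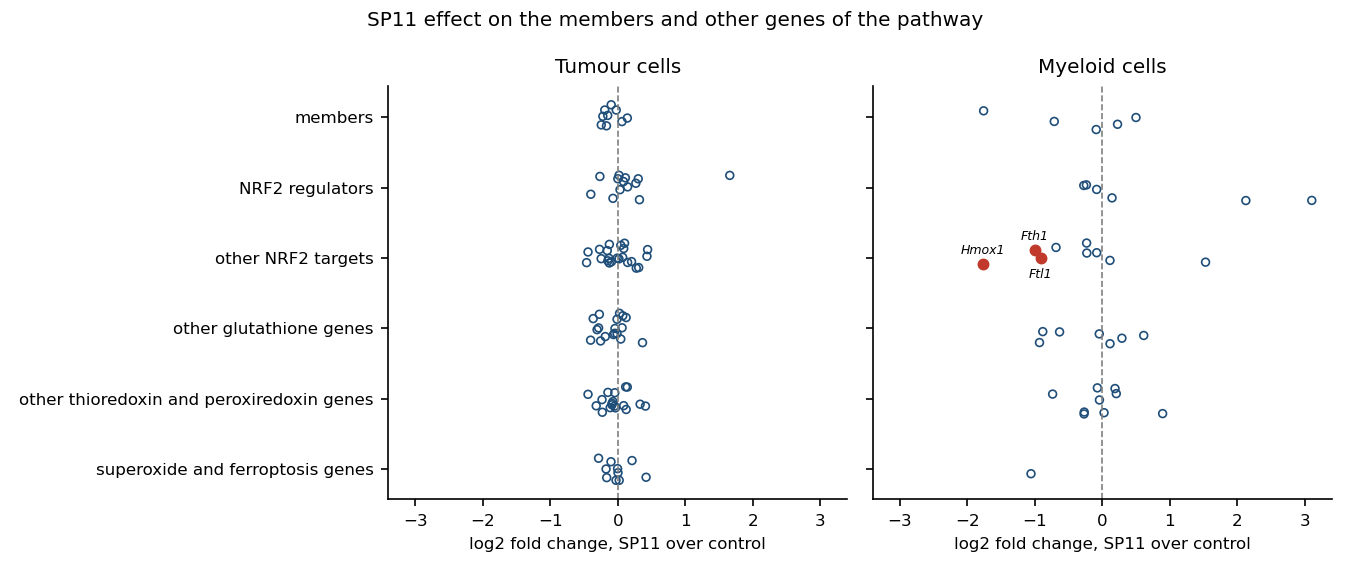
Log2 fold change of SP11 over control (x axis) for each tested member and gene of 5 other lists (y axis), in tumor cells (left) and myeloid cells (right). Filled red points passed an edgeR adjusted p of 0.05, open points did not. No point of the tumor panel is filled, and in the myeloid panel Hmox1, Fth1 and Ftl1 are, all below 0.

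The difference between the SP11 effect in myeloid and in tumor cells was itself tested, with library as a block. Of 10 members 0 were called, beside 0.736% of genes, and 1 had an unadjusted p under 0.05: Slc7a11, with a difference of −3.21 (SE 1.31, edgeR adjusted p = 0.388). An SP11 effect that differs between myeloid and tumor cells was thus not shown for any member.

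Over all kept barcodes, which mixes the classes, 0 of 10 members were called where 10.7% of genes were. Slc7a11 was at 0.719 and 1.67 CPM in controls and at 2.38 and 3.84 CPM with SP11, a log2 fold change of 1.22 (SE 0.41, edgeR adjusted p = 0.0629). Its direction was thus opposite to that within the myeloid cells, where its level was lower with SP11. Tumor cells were 92.2% and 93.3% of kept barcodes in the controls and 68.6% and 53.3% with SP11, and fewer cells of a class and less RNA per cell cannot be told apart in such a sum. Gclm was at 77.6 and 86.7 against 70.8 and 76.1 CPM (log2 fold change −0.31, SE 0.13, edgeR adjusted p = 0.138). These were the 2 members with an unadjusted p under 0.05, and DESeq2 called 0 of 10. Leaving out control 2 or SP11 1 brought Slc7a11 past the threshold, at an adjusted p of 0.00840 and 0.0159.

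**Figure D5:**
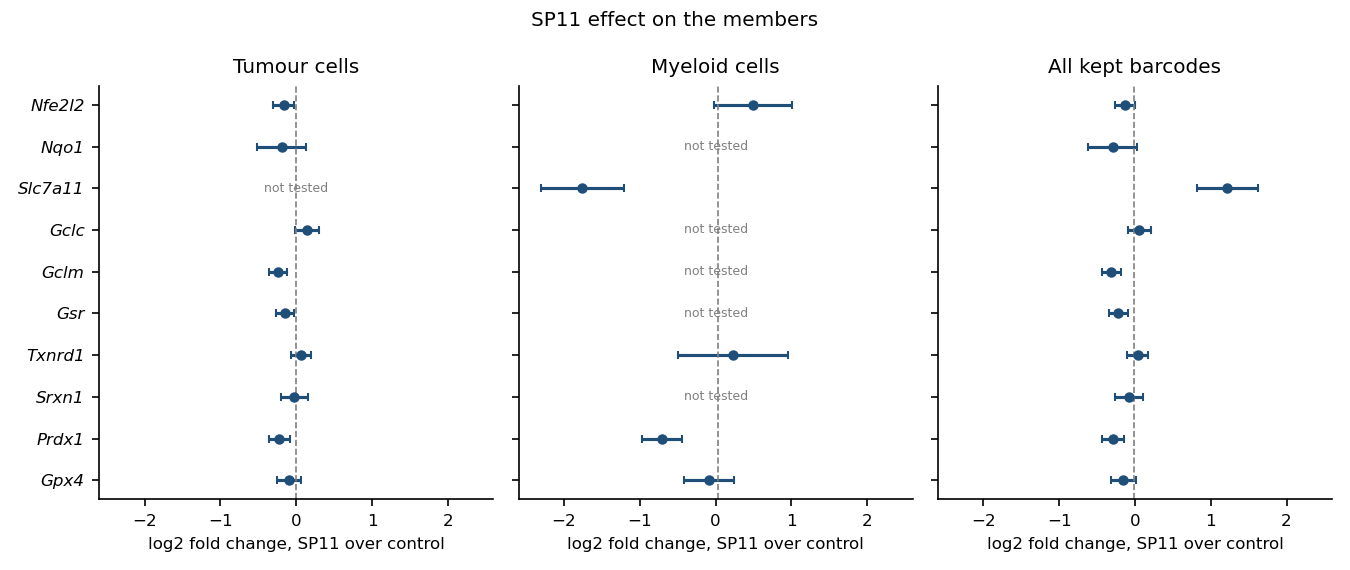
Log2 fold change of SP11 over control (x axis) for each member (y axis) in tumor cells, myeloid cells and all kept barcodes. Points are edgeR estimates with their standard errors, dashed lines the median over all genes tested, and genes too low for the filter are marked as not tested. Slc7a11 is at −1.76 in myeloid cells and at 1.22 over all kept barcodes, and no member passed the threshold in these 3 comparisons.

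The genes whose pattern over classes and libraries was most like that of a member were sought over 13 sums with at least 10 cells, by Pearson's r of log2(CPM + 1) among 6838 genes. For Slc7a11 these were Cd300lf (r = 0.99) and Rasgrp4 (r = 0.98), and for Nfe2l2 they were Lpin2 (r = 0.97) and Mxi1 (r = 0.96). Nqo1 was nearest to Slc25a21 (r = 0.99) and Slc9b1 (r = 0.97), and Gclm to Yipf5 and Sptssa (r = 0.99 for each). Txnrd1 was nearest to Gm26917 (r = 0.98), Srxn1 to Plau (r = 0.98), Gclc to Ncbp1 (r = 0.98), Prdx1 to Snrpe (r = 0.93), Gsr to Ncbp3 (r = 0.93) and Gpx4 to Steap1 (r = 0.90). The 13 sums share 4 libraries and differ widely in depth, so that these values are descriptions of class patterns.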

How the data were processed

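The values deposited by the authors are UMI counts, as 1 sparse matrix of genes by barcodes for each library, made with Cell Ranger 7.1.0 per the file headers. The submitters' processing notes name mm10, whereas the paper's methods name hg38, and the genes are mouse genes. No normalization had been applied to the deposited counts. Barcodes were filtered at 200 genes and 10% mitochondrial UMIs, the limits of the study for DLA. Doublets were not called, and tumor barcodes that also passed an immune gate stayed in the main sums. Gates required 5 UMIs of Krt8 and Krt18 (tumor), 3 of Cd79a, Cd79b and Ms4a1 (B), 3 of Cd3d, Cd3e, Cd3g, Trac, Trbc1 and Trbc2 (T), 5 of Lyz2, Csf1r, Cd68, Adgre1, C1qa, C1qb, C1qc, Ms4a7 and Fcgr1 (myeloid) and 20 of S100a8, S100a9 and Retnlg (neutrophil). Immune classes excluded tumor-gated barcodes, and barcodes passing several immune gates or with 50% or more hemoglobin UMIs were set aside.

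UMIs were summed per library and class, since cells are not replicates. Sums were tested with edgeR 4.0.16 (R 4.3.3) by the quasi-likelihood test with TMM, filterByExpr and Benjamini-Hochberg adjustment over all genes tested at 0.05. Class comparisons had library as a block and needed 10 cells in at least 2 libraries. CPM are counts per 1000000 UMIs of a sum. Standard errors are the log2 fold change over the root of the F statistic. Intervals are exact (Poisson, Clopper-Pearson, 95%), a count of 0 was limited at 3 counts, and both cover counting error only (SciPy 1.17.1). On simulated data with 200 genes changed by 1 or 2 log2 units, 82.8% and 99.0% were recovered in tumor cells, 29.3% and 88.5% in myeloid cells, and 17.3% and 50.0% in myeloid against tumor cells. All 10 members, the genes of the other lists called in the tumor or myeloid comparison, and the 2 genes most like each member in pattern, set which genes were named (Keap1 and Bach2 were added after their values were seen). Members and lists were chosen with earlier results of these data known. DESeq2 1.42.0, other filters, gates, scalings and depths, the replicate block and each library left out were alternatives.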

Additional observations from a re-analysis of the deposited data

How the results depend on the processing

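Of 574 values of single genes under alternative settings, 490 kept their direction and their side of the threshold, 34 of those called lost the threshold, 9 uncalled passed it, and 41 that were called in neither setting changed sign, between −0.76 and 0.59. No called value changed direction. In tumor cells 0 members were called under each of the 17 alternatives, which include 0 to 0 with each library left out. In myeloid cells the count of members called for SP11 was 1 with a mitochondrial limit of 20%, beside 7.05% of all genes. It was 1 with the replicate block (Slc7a11, edgeR adjusted p = 0.0227), beside 9.94%. There Slc7a11 was at −1.99 to −1.63 with a control left out and was too low to be tested without SP11 1 or SP11 2. Over all kept barcodes the count was 1 without the low-count filter (6.82% of genes) and 1 without scaling between libraries (13.1%). With the replicate block it was 2, Slc7a11 and Gclm, beside 18.3% of genes. Over all kept barcodes Slc7a11 was at 0.75 to 1.92 with each library left out. For myeloid against tumor cells the count was 3 by DESeq2 (34.7% of genes) and 1 in the control libraries alone (7.66%). With each library left out it was 1 to 7, beside 25.4% to 42.8% of genes. For T cells it was 1 by DESeq2, beside 5.18%. Replicate numbers are shared by the groups in the labels, but with 2 pairs and correlations of replicate differences of 0.13 (tumor), 0.08 (myeloid) and 0.08 (all barcodes) they were not shown to pair the samples, and the block changed no other call of a member. The comparison of the SP11 effect within C1q-positive myeloid cells was not run, because the controls had 5 and 2 such cells. The share results, which cannot pass a threshold, changed the sign of the difference between groups in 13 of 60 alternative values. Alternatives chosen after seeing the data were those without scaling, without hemoglobin genes, with under 2 UMIs of every immune gate, and the splits and left-out libraries of myeloid against tumor cells and of shares. Over all genes tested, the calls in tumor cells were 268 (78 to 425 with each library left out, 1038 with the block), and in myeloid cells 135 (46 to 130, and 208). Depth limits the immune classes most: a count of 0 allows up to 4.94 CPM over all myeloid UMIs, 7.13 in B cells and 33.6 in T cells.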
